A study of Mus musculus with 26 samples.

Results

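The arrays described here measured gene expression at rest in wild-type (WT) neural stem and progenitor cells (NSPCs) of the mouse forebrain. They are the arrays labelled WT and vehicle, 1 for each of the cultures numbered 1 to 6, and they make up 6 of the 26 arrays of the series. The members were taken by these labels alone, and no measured value entered the choice. The other arrays hold 7 SOX2 KO cultures with vehicle, 7 SOX2 KO cultures with dexamethasone (Dex, a synthetic glucocorticoid) and the 6 WT cultures with Dex. All cells came from the telencephalon of C57BL/6 mice at postnatal day 0, which the labels also call fetal and embryonic. Each culture was grown from 1 animal in medium with epidermal growth factor (EGF) and fibroblast growth factor-1 (FGF-1), so every group, the WT vehicle arrays included, was kept under these mitogens. After the third passage the cultures received the ethanol vehicle or 100 nM Dex for 4 h. Both sexes were used, and no label gives the sex of an array. How Sox2 was deleted in the SOX2 KO cultures is not given in the sources used here.

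NSPCs are the dividing cells from which the neurons, astrocytes and oligodendrocytes of the forebrain arise. At birth many of them derive from radial glia, whose long processes span the cortical wall and which carry both stem cell and astrocyte proteins. In culture, EGF and FGF signal through receptor tyrosine kinases to keep the cells dividing, while the transcription factor SOX2 and Notch signalling keep them undifferentiated.

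Each of 19505 genes was ranked within its array and the rank was written as a percentile, where 100 is the gene of highest signal and 0 the lowest. The percentile was then averaged over the 6 arrays and is given with its standard deviation (SD, n = 6). Probes differ in how well they bind, so a percentile orders signals and not numbers of transcripts. A gene was counted in the upper 25% where its percentile was at least 75 on all 6 arrays, and in the lower 25% where it was at most 25 on all 6. Over all genes, 4114 (21.1%) stood in the upper 25% and 2925 (15.0%) in the lower 25%. Olfactory, vomeronasal and taste receptor genes, which neural progenitors are not known to use, set a low level: none of 1450 stood in the upper 25%, 546 stood in the lower 25%, and 95% of them lay at or below percentile 42.1. Above that level were 11110 genes (57.0%).

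The 5 promoters printed here belong to genes on which the account turns. They are the top-ranked Fabp7 and its relative Fabp1 from the lower 25%, the highly ranked glial genes Ptprz1 and Vim, and the stem cell factor Sox2. Each line gives the 150 bases before the transcription start from RefSeq (GRCm38.p6), 5′ to 3′, with CpG dinucleotides in capitals. The stretches are chr10:57784773-57784922 for Fabp7, chr6:22875352-22875501 for Ptprz1, chr2:13574161-13574310 for Vim, chr3:34649845-34649994 for Sox2 and chr6:71199729-71199878 for Fabp1, all on the plus strand.
Fabp7: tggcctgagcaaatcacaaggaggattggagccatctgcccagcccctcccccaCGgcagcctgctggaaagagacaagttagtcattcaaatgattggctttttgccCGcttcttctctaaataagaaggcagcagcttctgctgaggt
Ptprz1: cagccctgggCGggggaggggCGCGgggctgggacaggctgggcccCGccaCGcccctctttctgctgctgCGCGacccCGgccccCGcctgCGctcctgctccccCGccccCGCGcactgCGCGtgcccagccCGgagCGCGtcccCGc
Vim: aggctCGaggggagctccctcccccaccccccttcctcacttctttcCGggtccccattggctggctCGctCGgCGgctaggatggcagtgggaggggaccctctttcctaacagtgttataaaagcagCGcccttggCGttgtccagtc
Sox2: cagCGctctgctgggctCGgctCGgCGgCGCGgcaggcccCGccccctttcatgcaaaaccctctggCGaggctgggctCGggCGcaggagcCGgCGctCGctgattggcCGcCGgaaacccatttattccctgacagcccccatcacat
Fabp1: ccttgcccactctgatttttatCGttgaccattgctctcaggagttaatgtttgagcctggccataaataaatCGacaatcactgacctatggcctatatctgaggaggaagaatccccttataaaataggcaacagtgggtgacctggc

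By mean rank the first of the 19505 genes was Fabp7, the brain fatty acid binding protein of radial glia. Values without a gene symbol were not ranked. On each array the highest value of any kind, 18.66 to 19.80, lay above that of Fabp7. Its deposited log2 values were 19.17, 19.19, 18.58, 19.38, 19.39 and 19.13 in cultures 1 to 6, its mean rank was 1.67, and it was ranked first on 3 of the 6 arrays. Culture 3 was the lowest and the other 5 lay close together. Next came Eef1a1, a translation elongation factor with a mean rank of 2.0, and Actb, cytoplasmic actin, with a mean rank of 3.5. Ptprz1, a receptor phosphatase of radial glia and glial progenitors, followed at 18.74, 18.75, 18.06, 18.83, 18.91 and 18.85, with a mean rank of 4.83. It kept within ranks 3 to 11. Mt1, a metal-binding metallothionein that glucocorticoids induce, was ranked first on 1 array, the array labelled vehicle of culture 4, at 19.57. In the other cultures Mt1 lay between 17.82 and 18.35.

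The rest of the 25 genes ranked highest fell into a few kinds. Cytoskeletal genes were Actb, Tmsb4x (thymosin beta 4), Cfl1 (cofilin) and Vim (vimentin, the intermediate filament of radial glia), with Vim at 17.60 to 18.28. Energy metabolism gave Atp5b, Cox7c, Slc25a5 and Ckb, the brain creatine kinase. Hmgcs1, an enzyme of cholesterol synthesis, ranged over 17.48 to 18.35. Mest, an imprinted gene expressed from the paternal copy, had a mean rank of 12.3 and values between 17.94 and 18.48. The tetraspanin Cd81, the redox protein Txn1, the 14-3-3 protein Ywhae, the RNA-binding protein Hnrnpk and the ribosomal protein Rpl41 were also among them. The remaining places were taken by the histone genes H2ac22, H2ac24, H2ac13, H3c14, H3c15 and H4c1. Replication-dependent histone genes are near-identical copies, and H3c14 and H3c15 had the same value on every one of the 6 arrays, so the signal cannot be assigned to single histone genes.

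Many members of the same families were also high. Of 60 ribosomal protein genes, 56 were in the upper 25% and the median percentile of the family was 98.7. Of 57 replication-dependent histone genes, 46 were in the upper 25%, with a median of 98.0. Among 97 genes of the respiratory chain and ATP synthase, 68 were in the upper 25% and the median was 91.4. The median over all genes was 49.6.

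The same order ran alongside the base composition of the promoters. A promoter of 250 bases before the start was matched for 167 of the 200 genes ranked highest, 2312 of the 2925 genes of the lower 25% and 15691 of all 19505 genes. The median number of CpG dinucleotides was 17 in the 200 genes ranked highest, 3 in the lower 25% and 10 over all genes. The GC box GGGCGG, sought on both strands, was found in 53.9% of the promoters of the 200 genes, in 20.6% of the lower 25% and in 44.0% of all promoters. The letters TATAAA, also sought on both strands, were found in 10.2%, 21.1% and 12.1% of the same sets. Among the promoters printed above, Ptprz1 has 22 CpG in the 250 bases, Vim 8, Sox2 27, Fabp1 2 and Fabp7 4. The top-ranked gene thus has a CpG count close to that of its relative in the lower 25% and below the median of all genes. These counts describe the sequence only, and no factor's binding or methylation was measured on these arrays.

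The label of the cells was checked against their markers. Sox2 had log2 values of 12.80, 12.67, 13.25, 13.18, 14.39 and 14.13 in cultures 1 to 6 and a mean percentile of 94.0 ± 2.61. Its signal was highest in cultures 5 and 6. Nes, the intermediate filament nestin, lay at 12.53 to 13.34 with a median of 12.98 and a percentile of 92.7 ± 1.39. Egfr, the receptor for the EGF in the medium, lay at 11.39 to 12.33 with a median of 11.90 and a percentile of 87.7 ± 1.56. All 4 labelled markers, Fabp7 included, were therefore in the upper 25% on all 6 arrays. Without culture 4 the mean percentiles were 93.8 for Sox2, 92.3 for Nes and 87.4 for Egfr.

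Of the neural stem and progenitor list, 19 genes had a value; 12 were in the upper 25%, none in the lower 25%, and the median percentile was 87.4. The glial fate factor Sox9 stood at 97.7 ± 0.69, N-cadherin (Cdh2) at 96.6 ± 0.31, Metrn, a secreted glial factor, at 95.4 ± 0.93 and the Notch modifier Lfng at 92.9 ± 1.60. The lowest members of the list included the receptor Notch1 at 59.5 ± 5.40, prominin (Prom1), a surface marker of stem cells, at 54.6 ± 9.66 and the Notch effector Hes1 at 52.9 ± 1.35. Another Notch effector, Hes5, was at 72.3 ± 3.13. Prom1 values were 8.77, 8.35, 8.71, 6.30, 5.80 and 7.10, so cultures 1 to 3 did not overlap with cultures 4 to 6. The scale of the arrays, given below, divided the cultures in the same way, and its part in the Prom1 values was not tested.

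Astrocyte and radial glia genes were also high. Of 19 with a value, 13 were in the upper 25% and none in the lower, with a median percentile of 90.1. Besides Ptprz1, Aldoc (a glycolytic enzyme of astrocytes) had 97.8 ± 0.87, Aldh1l1 (an astrocyte folate enzyme) 96.6 ± 0.60, and Hepacam (an astrocyte adhesion protein) 96.7 ± 1.68. Apoe, the main lipid carrier of the brain, had values of 16.31, 16.61, 15.05, 16.48, 16.54 and 12.52, which put culture 6 far under the other 5. The extracellular matrix gene Tnc was lowest in culture 4, at 12.70, and between 14.53 and 16.28 elsewhere. Markers of mature astrocytes were not uniformly high. S100b stood at percentile 31.6 ± 9.86, and Gfap, the intermediate filament of astrocytes, at 62.7 ± 15.8.

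Neuronal genes spread over the whole range. Of 20 with a value, 10 lay above the chemosensory level, only Map2 (98.3 ± 0.35) and Gap43 (92.4 ± 2.80) stood in the upper 25%, and the median percentile was 43.0, against 49.6 over all genes. Both encode proteins of neurites, of dendrites for Map2 and of growing axons for Gap43. The vesicular glutamate transporters Slc17a7 and Slc17a6, which define excitatory neurons, were at 3.64 ± 2.26 and 6.52 ± 4.75, in the lower 25%. Between them stood the RNA-binding protein Elavl4 at 76.1 ± 1.70, the synaptic protein Snap25 at 73.9 ± 5.56 and beta-III tubulin (Tubb3) at 67.1 ± 3.60. Of 12 intermediate progenitor and neuroblast genes, only the surface protein Cd24a was in the upper 25%, at 86.5 ± 3.44. Eomes (13.1 ± 3.32), the factor that marks cortical intermediate progenitors, Neurog1 (6.55 ± 2.14), a proneural factor, and Dlx5 (6.71 ± 8.06), a factor of the interneuron lineage, were in the lower 25%.

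Genes of the oligodendrocyte lineage covered a wide range. The lineage factors Olig1 and Olig2 were in the upper 25%, at 99.0 ± 0.38 and 98.1 ± 1.06, and the median over 13 genes was 65.7. The progenitor proteoglycan Cspg4 stood at 75.8 ± 6.45. Mog, a protein of mature myelin, was in the lower 25% at 9.22 ± 6.73, and Opalin (19.4 ± 11.9) and Mag (23.8 ± 17.1), also of mature oligodendrocytes, were at percentile 25 or below on 5 and 4 of the 6 arrays. Other genes of myelinating cells stood higher, the myelin enzyme Cnp at 72.5 ± 8.37, Bcas1 at 75.3 ± 7.45 and the myelin factor Myrf at 56.1 ± 8.75. Of the 13 genes 1 was in the lower 25%. In a bulk sample, fewer cells of a type and less RNA per cell cannot be told apart.

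Cell types that a forebrain dissection could carry over, and the pluripotency list, had no listed gene in the upper 25%. Not all of these lists were low throughout. None of 12 microglial genes was in the upper 25% and 5 were in the lower, with Csf1r at 8.07 ± 7.60, Aif1 at 8.23 ± 5.71 and the highest, Ptprc, at 48.8 ± 2.07. None of 10 endothelial genes was in the upper 25%, 4 were in the lower and 3 lay above the chemosensory level. They ran from the tight junction gene Cldn5 at 2.53 ± 2.59 to a highest member at 52.5. Ependymal, choroid plexus, mural and meningeal, and pluripotency lists had 0 of 7, 0 of 6, 0 of 12 and 0 of 9 genes in the upper 25%. In the lower 25% they had 3, 1, 1 and 4 genes, and their median percentiles were 19.4, 41.5, 31.0 and 17.3. The choroid plexus median was thus close to the 43.0 of the neuronal list. Pou5f1, the pluripotency factor OCT4, stood at 8.78 ± 3.23. The choroid plexus gene Ttr and the smooth muscle gene Acta2 were high in some cultures and are described with the variable genes.

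**Figure D1:**
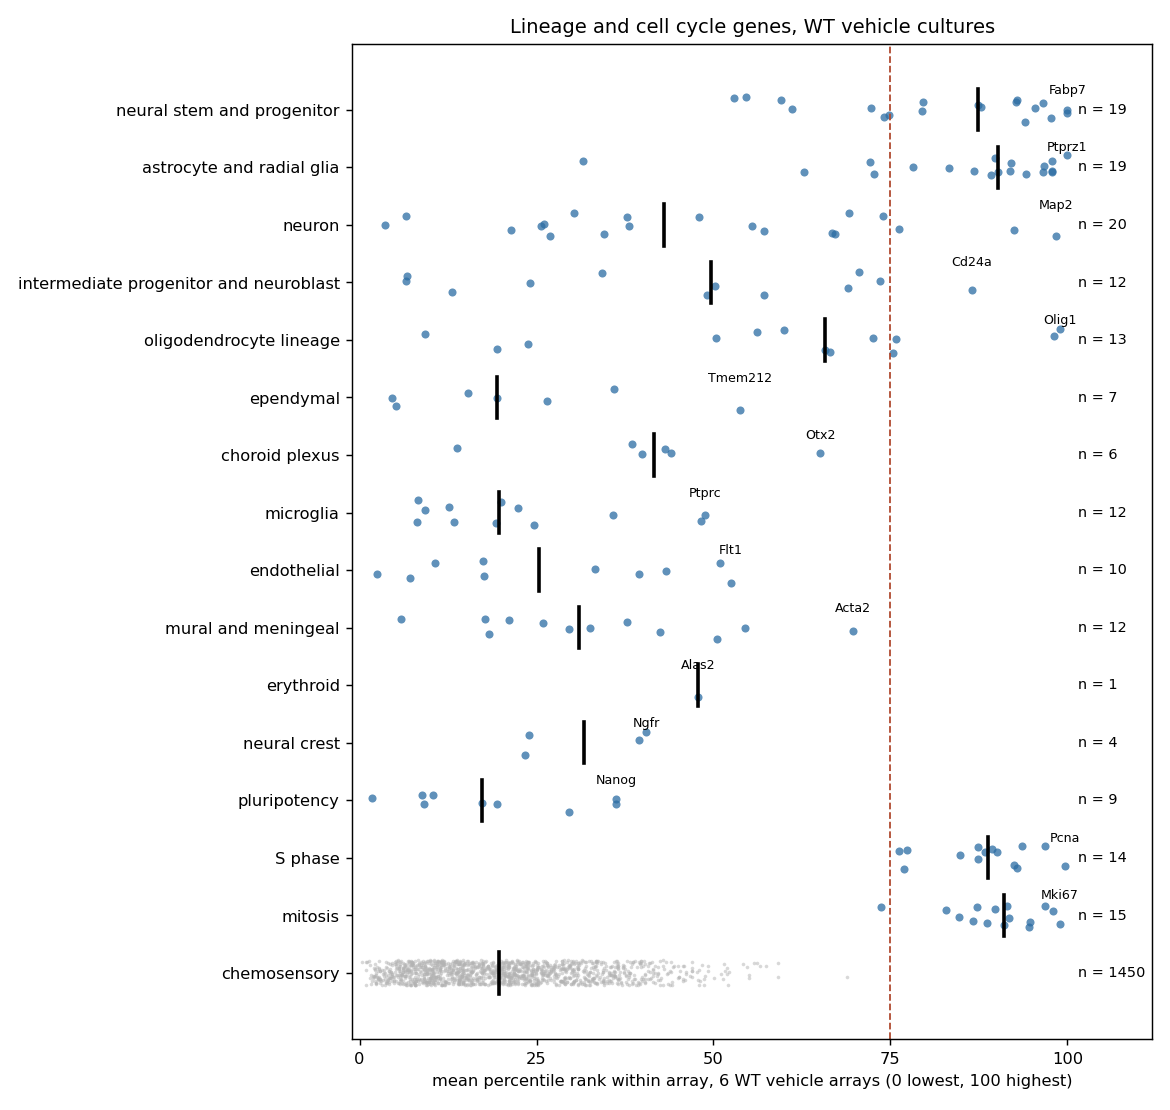
Each point is 1 gene at its mean percentile rank over the 6 WT vehicle arrays (horizontal axis, 0 lowest to 100 highest), in rows by list, with a black bar at the list's median, n as the number of genes measured and the dashed line at percentile 75. Stem cell, radial glia, S phase and mitosis genes lie mostly to the right of the line, and microglial, endothelial, pluripotency and chemosensory genes to its left.

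Genes of S phase and mitosis were high on all arrays. Of 15 mitosis genes, 14 were in the upper 25%, with a median percentile of 91.1, and of 14 S phase genes 11 were, with a median of 88.8. Mki67, the antigen of dividing cells, had values from 15.48 to 16.11 with a median of 15.66, and Pcna, the clamp of the replication fork, from 16.82 to 17.12 with a median of 17.06. The median SD of the log2 values was 0.20 for S phase and 0.28 for mitosis, against 0.39 over all genes. Among D cyclins and inhibitors of cyclin-dependent kinases, Ccnd2 (99.0 ± 0.33), the D cyclin of neural progenitors, and the p21 gene Cdkn1a (99.0 ± 0.39) stood equally high. The p57 gene Cdkn1c, an inhibitor linked to cell cycle exit, was at 26.8 ± 10.6. Among genes that mark regions of the brain, the median percentile was 42.3 for 8 dorsal and 42.2 for 8 ventral telencephalic genes, and 4 genes of each list lay above the chemosensory level. The dorsal list held 2 genes in the upper 25%, Lhx2 (79.5 ± 2.03) and Emx2 (78.7 ± 1.88), with Emx1 at 40.4 ± 5.00 and Wnt8b at 10.9 ± 4.59. The ventral list held none in the upper 25%. Of 9 hindbrain and spinal cord genes none was there either, and 3 lay above the chemosensory level. The median of these 9 was 36.2, and they ran from Hoxa5 at 4.49 ± 3.75 to a highest member at 53.7.

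Receptors decide which signals a cell can answer. Over the receptor families examined, 209 genes had a value, and 32 (15.3%) were in the upper 25%, against 21.1% of all genes, while 25 were in the lower 25%. Most families were represented by a small number of members with a high signal.

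For the mitogens in the medium, Egfr was the only member of the EGF receptor family in the upper 25%. Erbb4, a neuregulin receptor, stood at 75.6 ± 4.15, Erbb2, which binds no ligand of its own, at 42.5 ± 6.61, and Erbb3 in the lower 25% at 11.8 ± 4.12. Among FGF receptors, Fgfrl1, which lacks a kinase domain, was at 84.3 ± 2.00. Fgfr3 (78.1 ± 4.72) and Fgfr1 (77.9 ± 2.35) each missed the upper 25% on 1 of the 6 arrays. Fgfr2 stood at 62.0 ± 1.58 and Fgfr4 at 9.91 ± 2.19. The neighbours Fgfr3 and Fgfr1 do not differ beyond their spread.

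Of 12 other growth factor receptors, 3 were in the upper 25%. Ntrk2, the receptor for brain-derived neurotrophic factor, had values from 14.14 to 15.03 with a median of 14.46 and a percentile of 97.3 ± 0.75. The insulin receptor Insr was at 92.2 ± 0.79 and the neurotrophin-3 receptor Ntrk3 at 87.6 ± 1.86. None of the 4 Notch receptors was in the upper 25%, the highest being Notch2 at 68.3 ± 2.86. Of 15 Wnt receptors and co-receptors, Ryk (97.2 ± 0.66), Fzd3 (92.8 ± 0.84) and Lrp6 (87.2 ± 1.85) were. Hedgehog signalling was represented by its receptor Ptch1 (90.3 ± 2.47) and the co-receptor Cdon (80.3 ± 2.83), while Smo, the transducer that Ptch1 holds in check, stood at 60.4 ± 2.62.

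Among 10 receptors for bone morphogenetic proteins (BMPs) and TGF-beta, the type II receptor Bmpr2 (97.8 ± 0.16) and the type I receptor Bmpr1a (85.9 ± 1.08) were in the upper 25%. Without culture 4, 4 of the 10 would be counted there. Both chains of the receptor for leukaemia inhibitory factor, Il6st (85.7 ± 1.03) and Lifr (79.6 ± 3.34), were in the upper 25%, and of 13 Eph receptors only Ephb1 was, at 81.6 ± 4.19. Of 42 nuclear receptors, 4 were: the orphan receptors Rorb (95.2 ± 0.98), Nr2f1 (83.1 ± 2.22) and Nr2e1 (79.5 ± 2.43), the last also known as Tlx and needed for neural stem cell renewal, and the thyroid hormone receptor Thra (81.9 ± 3.87). The glucocorticoid receptor Nr3c1, the target of the Dex used in the study, had values of 7.83, 7.53, 7.64, 8.11, 8.16 and 7.68 and a percentile of 58.3 ± 3.15. It stood in neither the upper nor the lower 25% on any of the 6 arrays.

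Among glutamate and GABA receptors the shares in the upper 25% were close to the 21.1% of all genes or rested on few genes. Of 14 ionotropic glutamate receptor genes, Gria2 (95.0 ± 2.41), Grik5 (83.2 ± 2.65) and Gria3 (81.4 ± 3.12) were in the upper 25%, and of 6 metabotropic ones Grm3 (90.9 ± 1.22) and Grm5 (89.0 ± 1.80), the types that astrocytes are known to carry. Of 11 GABA receptor genes, Gabbr1 (89.4 ± 3.19) and Gabrg1 (81.7 ± 1.76) were. No gene of the purine (13), monoamine and acetylcholine (18) or chemokine (13) receptor families was in the upper 25%, and their highest members were P2ry1 (64.2 ± 1.56), Htr2a (57.3 ± 6.24) and Ccr7 (59.5 ± 2.54). The highest of the 209 receptor genes in these families, which do not hold the receptor phosphatase Ptprz1, was Ednrb, the endothelin B receptor of glia, with values between 15.83 and 16.75, a median of 16.33 and a percentile of 99.3 ± 0.19. With it in the upper 25% stood the adhesion receptor Adgrg1 (98.0 ± 0.52), the thrombin receptor F2r (95.6 ± 1.33), the PACAP receptor Adcyap1r1 (94.7 ± 1.47), the latrophilin Adgrl3 (88.4 ± 1.25) and Gprc5b (84.0 ± 2.37). These make 6 of the 19 genes of a mixed list of G protein-coupled receptors, which holds lipid, peptide, adhesion and other receptors.

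**Figure D2:**
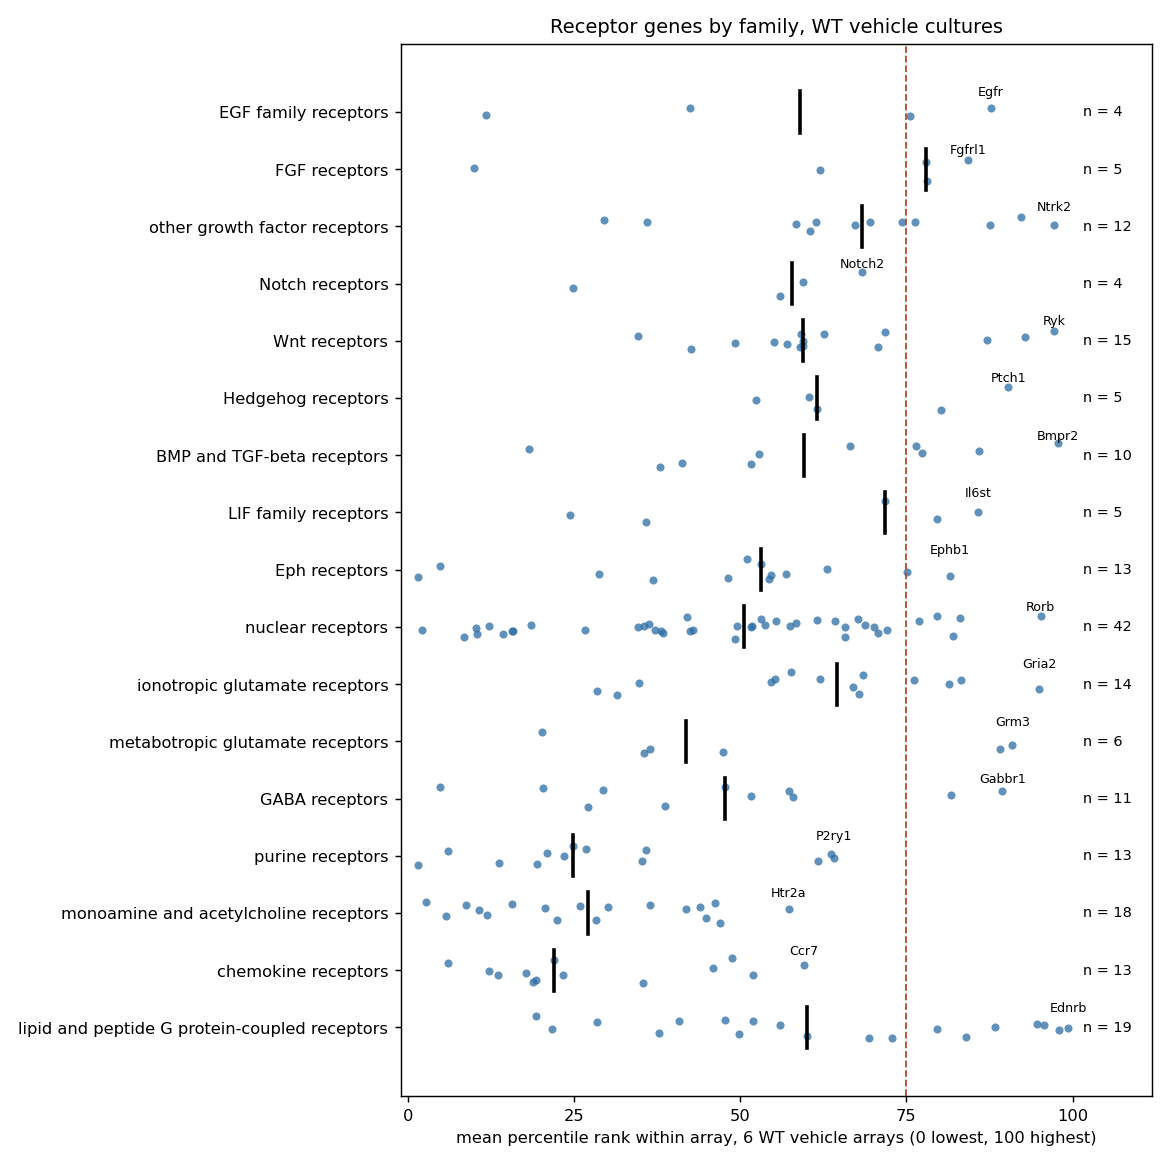
Each point is 1 receptor gene at its mean percentile rank over the 6 WT vehicle arrays (horizontal axis, 0 lowest to 100 highest), in rows by family, with a black bar at the family's median, n as the number of genes measured and the dashed line at percentile 75. Most families have a median to the left of the line and single members to its right, led by Ednrb at 99.3.

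The 6 arrays did not stand at equal distance. Spearman's rho between vehicle arrays over all genes ranged from 0.956 to 0.987, a description across genes that share arrays and probes, and the array labelled vehicle of culture 4 gave the lowest values, 0.956 to 0.965 with each of the others. The upper quartile of the log2 values over all transcript clusters was 10.14 to 10.38 in cultures 1 to 3 and 9.66 to 9.77 in cultures 4 to 6. Of the 6 Y-linked genes of the list with a value, 4 divided the WT cultures in the same way, among them Eif2s3y, Uty and Kdm5d, while Usp9y and Zfy1, at low signal, did not. Eif2s3y had 12.17 to 12.54 in cultures 1 to 3 and 2.81 to 3.17 in cultures 4 to 6. In these 6 cultures the scale of the array and the level of Y-linked RNA cannot be told apart. In SOX2 KO they separated, since culture 7 had an upper quartile of 10.40 with Eif2s3y at 3.60 and culture 10 one of 9.78 with Eif2s3y at 12.34.

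Culture 4 went against its label in genes that glucocorticoids induce. Fam107a, an actin-associated protein and a known glucocorticoid target, had 5.68 on the array labelled Dex of culture 4 and 12.51 on its array labelled vehicle. In the other 5 WT cultures Fam107a had 9.65 to 11.29 on the Dex arrays and 5.04 to 5.58 on the vehicle arrays. Over the 18 glucocorticoid-induced genes the mean percentile on the vehicle arrays was 79.0 in culture 4, against 66.1 to 69.6 in the others, and on the Dex arrays 67.1 against 75.4 to 78.8. Fkbp5 was 12.36 on the array labelled Dex of culture 4 and 14.39 on its array labelled vehicle. Whether the 2 arrays of culture 4 carry each other's labels was not tested. The samples are used as labelled, so the values of its array labelled vehicle, and the means over 6 arrays, hold for untreated cells only if they do not. Values without culture 4 are given where a result rests on it.

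The 20 genes of largest spread were taken among genes that reached percentile 75 on at least 1 array, by the SD of their log2 values, which is therefore a description. The SD ran from 5.14 for Eif2s3y to 1.63 for Nr2f2, and the gene just outside was Apoe at 1.61. On the Dex arrays of the same cultures, which did not enter the choice, the SD of all 20 lay above the 99th percentile of all genes, 17 of the 20 were highest in the same culture and 10 of the 20 were lowest in the same culture. The same agreement was not counted over all genes. For Fam107a, which 1 array decides, the SD was 2.93 with culture 4 and 0.25 without it. Its SD of 2.16 on the Dex arrays does not repeat that difference. Culture 4 was its highest culture on the vehicle arrays and its lowest on the Dex arrays.

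A first set was high in cultures 1 and 2. Mbp, myelin basic protein, had 9.73, 10.97, 7.60, 5.30, 5.70 and 4.90 in cultures 1 to 6. Sox10, the factor of the oligodendrocyte lineage, had 10.95, 11.34, 7.94, 7.60, 7.12 and 8.06, and Gpr17, a receptor of committed oligodendrocyte precursors, had 11.08, 11.02, 6.87, 8.81, 8.34 and 7.49. In each of these genes cultures 1 and 2 stood above the other 4 without overlap. The tubulin gene Tubb4a (11.98 and 12.82 in cultures 1 and 2, 7.38 to 10.01 elsewhere), Vxn (10.25 and 10.74, against 6.61 to 7.93) and the cytoskeletal gene Epb41l3 (9.54 and 10.39, against 6.29 to 8.42) followed the same order. Gfap was also highest there, at 10.35 and 10.83, and lowest in culture 6 at 5.48. The mean percentile of the oligodendrocyte list was 66.1 and 70.8 in cultures 1 and 2 and 52.2 to 57.2 in cultures 3 to 6. That list holds Mbp, Sox10 and Gpr17, so its mean follows them in part, and no mean without them was computed. Unlike Sox10, the lineage factors Olig1 and Olig2 of that list did not share this order. Olig2 had 14.59, 14.58 and 14.54 in cultures 1 to 3 and 16.45, 16.10 and 15.40 in cultures 4 to 6, and Olig1 was highest in culture 4, at 16.71. Cspg4 had 9.97 in culture 1, less than in cultures 2, 3, 4 and 6.

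A second set was highest in culture 3. Acta2, smooth muscle actin, had 10.39, 9.52, 12.51, 7.68, 7.57 and 8.89 in cultures 1 to 6. Hbegf, a ligand of the EGF receptor, had 10.21, 9.68, 12.54, 6.85, 7.12 and 9.70, and Id1, an inhibitor of differentiation factors that BMPs induce, had 12.01, 11.66, 13.94, 10.46, 8.63 and 11.87. Plp2, Col18a1 (a basement membrane collagen) and Nr2f2 (an orphan nuclear receptor) were highest in the same culture, at 13.19, 10.68 and 11.08. Tagln, another gene of smooth muscle, was 8.95 there and 4.59 to 7.87 elsewhere, while Col3a1, a fibroblast collagen, was at 3.67 in culture 3 and at 3.44 to 4.18 in the others. The mean percentile of the 12 mural and meningeal genes was 39.3 in culture 3 and 27.2 to 35.8 in the others. Acta2 and Tagln belong to these 12, so the mean follows them in part, and no mean without them was computed. The part of the list in the pattern was not tested.

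Single cultures and other divisions made up the rest. Ttr, transthyretin of the choroid plexus, was 11.79 in culture 6 and 4.38 to 6.35 in the other 5. Otx2, a factor of the choroid plexus, was 9.58 in culture 6 and 7.85 to 9.39 elsewhere, while Folr1, Clic6, Aqp1 and Kl of the same list were not highest in culture 6. The mean percentile of the choroid plexus list without Ttr was 44.0 in culture 6 and 37.4 to 41.5 elsewhere. Cwc22, a splicing factor, had 13.34 in culture 1 and 13.00 in culture 4, with 8.43 to 9.11 in the other 4. Sparcl1, a matrix protein of astrocytes, had 13.64, 13.81 and 13.18 in cultures 1 to 3 and 10.91, 10.34 and 9.92 in cultures 4 to 6. Fam135b divided the cultures in the same way, with 11.32, 11.12 and 11.22 against 7.37, 6.45 and 8.54. So did the Y-linked Eif2s3y and Uty and the scale of the arrays. At the other end, the genes of smallest spread at percentiles 50 to 95 were Rcc1l (10.36 to 10.47) and Supt16 (13.40 to 13.50), Anapc10 (11.26 to 11.38), Gspt2 (7.27 to 7.42) and Pin4 (10.24 to 10.41). Supt16 encodes a subunit of a histone chaperone and Anapc10 one of the anaphase-promoting complex.

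**Figure D3:**
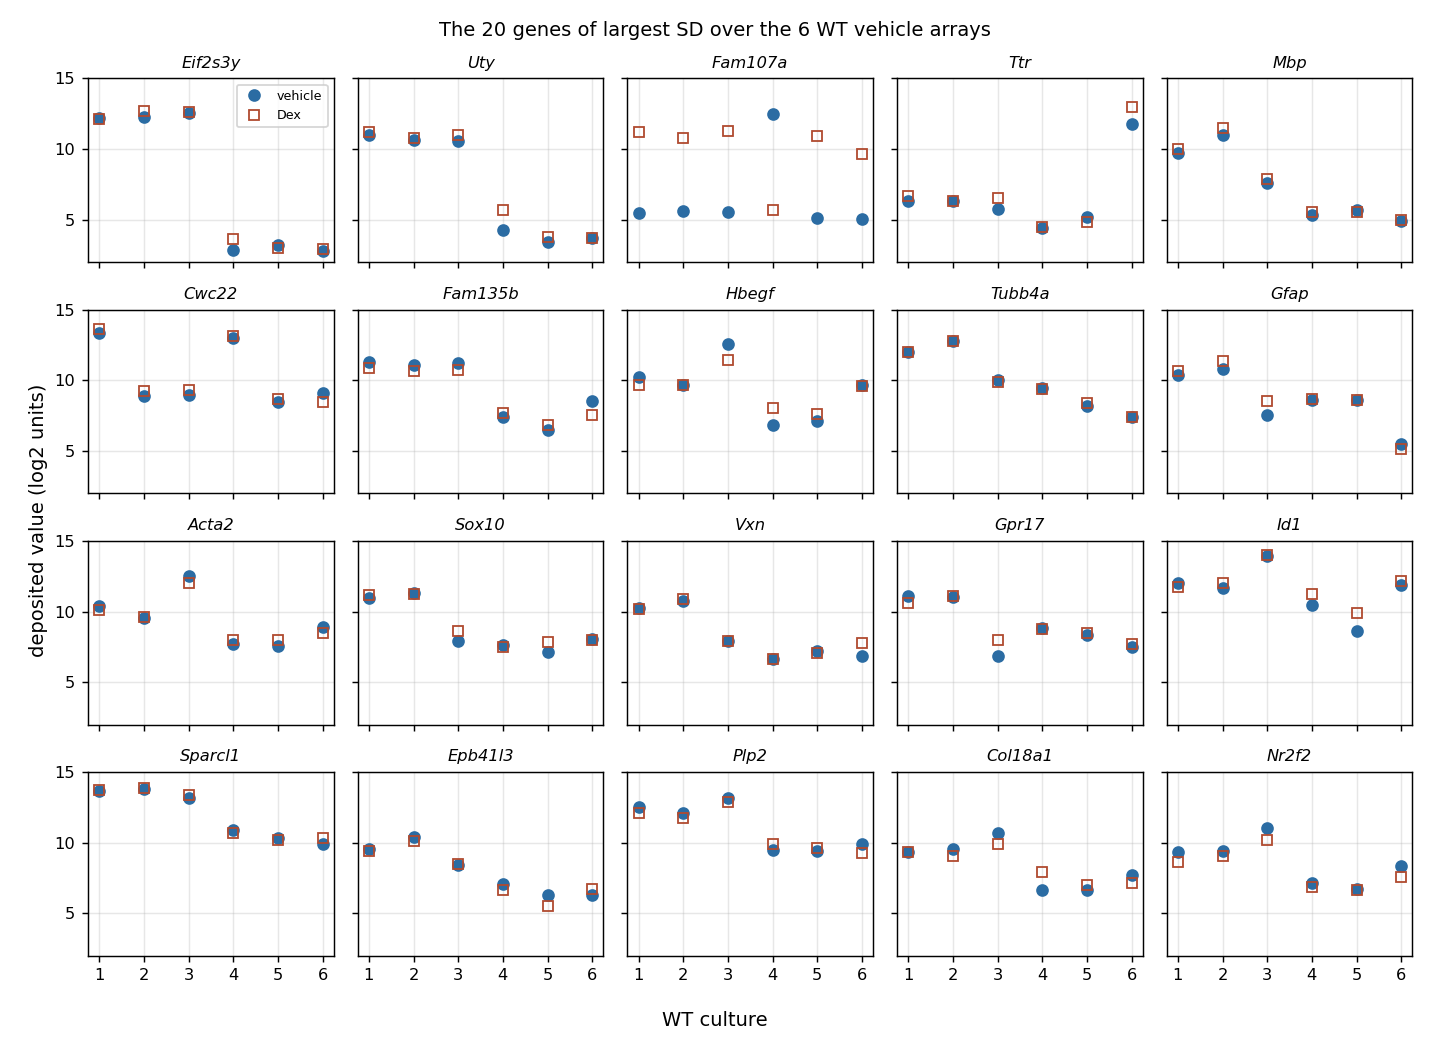
Each panel is 1 of the 20 genes of largest SD, with the WT culture on the horizontal axis and the deposited log2 value on the vertical axis, filled circles for vehicle and open squares for Dex. In most panels the circle and the square of a culture lie close together, while Fam107a shows them far apart, with culture 4 at 12.51 on its array labelled vehicle.

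Whether cultures differ beyond the spread between their own arrays was tested over the 12 WT arrays with a moderated F test in limma, with treatment as labelled and Benjamini-Hochberg adjustment over all genes. At an adjusted p under 0.05, 9659 genes (49.5%) differed among the 6 cultures. The 2 arrays of a culture share its animal, so the test sets differences between cultures against the spread within them. Without culture 4 the count was 5632 (28.9%), and after quantile normalization it was 6715 (34.4%). The values were tested as deposited, so the differences in array scale given above enter the test. The list counts that follow come from this fit with all 6 cultures and were not repeated without culture 4 or after rescaling. Of the astrocyte and radial glia list 18 of 19 genes passed, of the oligodendrocyte list 12 of 13, of the neural stem and progenitor list 11 of 19, of the mitosis list 8 of 15, of the D cyclins and inhibitors 7 of 9, and of the S phase list 3 of 14. The last share lies under the 49.5% of all genes, and the first and second above it. Signal height moved with this count, since 70.9% of the genes of the upper 25% and 17.7% of those of the lower 25% passed. Over the receptor genes 108 of 209 passed, a share near that of all genes, and none of the 13 chemokine receptors did.

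**Figure D4:**
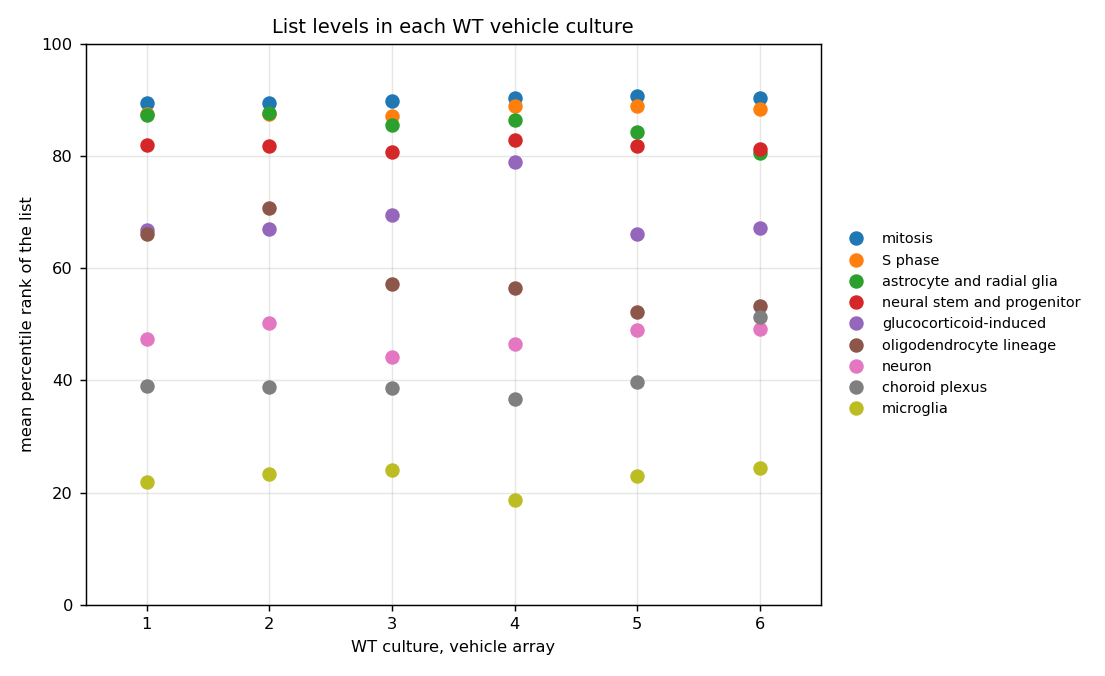
The mean percentile rank of 9 gene lists (vertical axis, 0 to 100) is shown for the vehicle array of each WT culture (horizontal axis). Mitosis and S phase genes stay near the top in all 6. Oligodendrocyte genes, Mbp, Sox10 and Gpr17 among them, are highest in cultures 1 and 2 (66.1 and 70.8). Choroid plexus genes are highest in culture 6 (51.4, and 44.0 without Ttr) and glucocorticoid-induced genes in culture 4 (79.0).

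The WT vehicle levels were last set beside the SOX2 KO vehicle arrays, to see which of the genes described differ between the genotypes. The targeted gene Sox2 was at 3.95 to 5.48 with a median of 4.51 in the 7 SOX2 KO cultures and at 12.67 to 14.39 with a median of 13.22 in the 6 WT cultures (limma, adjusted p = 3.61e-17), and the groups did not overlap. In SOX2 KO it stood at percentiles 5.91 to 33.0, all below the chemosensory level, so only the direction is given and no size. Over all genes 109 (0.559%) passed, 37 (0.19%) higher and 72 (0.369%) lower in SOX2 KO. The number higher was 22 without culture 1 or culture 7 and 71 after quantile normalization of the arrays. Among 144 cell type marker genes none was higher and 4 were lower. Besides Sox2 these were the astrocyte enzyme Aldoc, the astrocyte glutamate transporter Slc1a2 and Syt1, a synaptic vesicle protein. Aldoc averaged 13.24 ± 0.30 in SOX2 KO and 14.95 ± 0.59 in WT (SD). The difference was -1.71 ± 0.22 (limma, adjusted p = 3.57e-05). Here and below, the value after ± is the standard error for a difference and the SD for a mean. Slc1a2 averaged 10.19 ± 0.73 in SOX2 KO and 12.23 ± 0.55 in WT, and the difference was -2.03 ± 0.35 (limma, adjusted p = 0.00204). Syt1 averaged 5.89 ± 0.72 in SOX2 KO and 7.48 ± 0.61 in WT (limma, adjusted p = 0.0149), with overlapping ranges.

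The remaining labelled markers did not pass. Nes averaged 12.96 ± 0.52 in SOX2 KO and 12.96 ± 0.29 in WT, and the 95% interval of the difference ran from -0.61 to 0.61. Fabp7 averaged 19.20 ± 0.29 in SOX2 KO and 19.14 ± 0.30 in WT, with an interval of -0.30 to 0.42. Egfr averaged 10.99 ± 0.54 in SOX2 KO and 11.90 ± 0.32 in WT, a difference of -0.92 ± 0.26 (limma, adjusted p = 0.127). None of the 25 genes ranked highest in WT passed. As only 0.559% of all genes passed, a set of 25 is too small for this to tell anything about them.

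Of the 209 receptor genes, 3 were higher in SOX2 KO and 1 was lower. Epha5, a receptor for ephrins, had 11.28 to 12.11 with a median of 11.58 in SOX2 KO and 9.86 to 10.36 with a median of 10.06 in WT, a difference of 1.57 ± 0.18 (limma, adjusted p = 7.19e-06), and the groups did not overlap. Fzd9, a Wnt receptor, differed by 1.13 ± 0.24 (limma, adjusted p = 0.0142) and the muscarinic receptor Chrm3 by 1.19 ± 0.26 (limma, adjusted p = 0.021). Ackr3, a scavenging receptor for chemokines, was lower in SOX2 KO, at 4.55 to 5.77, against 5.86 to 6.92 in WT (limma, adjusted p = 0.0221). In SOX2 KO it lay below the chemosensory level, at percentiles 18.0 to 39.9, so no size is given. With 1 culture left out, some of these calls no longer passed while the differences stayed close to their size. Fzd9 differed by 1.07 without culture 1 (limma, adjusted p = 0.0646) and by 1.12 without culture 2 (limma, adjusted p = 0.0502). Chrm3 missed the threshold in 4 of the 13 repeats, with differences of 1.10 to 1.17, and Ackr3 in 5. Without culture 4 the adjusted p of Ackr3 was 0.0801 (limma). With the culture as a random block, since the 2 arrays of a culture are not independent, 6 of the 209 receptors passed, the additions being Epha7 (adjusted p = 0.0405) and Fzd10 (adjusted p = 0.0487), and 5 of the 144 cell type markers, the addition being Sp8 (adjusted p = 0.0416). Lfng, Hes5, Myrf, Slc1a2, Syt1 and Fzd10 were chosen for naming after their values were seen.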

How the data were processed

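The deposited table held log2 expression values of 22206 transcript clusters on 26 one-colour arrays, as the authors made them. Values ran over 2.22 to 19.81, on which the unit rests; the base of the logarithm and the normalization are not given in the sources used here. Of the clusters, 19572 carried 1 gene symbol and 2634 carried none and stayed out. All 19572 were matched by Entrez identifier. For 55 genes with several clusters the one of highest mean was used, which left 19505 genes.

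Genes were ranked within each array in Python 3.11.15 (pandas 2.3.3, numpy 2.4.6). Tests used limma 3.58.1 in R 4.3.3 with Benjamini-Hochberg adjustment over all genes and an adjusted p threshold of 0.05. The differences among WT cultures came from the 12 WT arrays, and SOX2 KO against WT from 1 mean per group over all 26 arrays. The code was tested on simulated data. The number of arrays limits the precision.

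Named genes were the 4 labelled markers, the 25 genes ranked highest, the 20 of largest and 5 of smallest SD, up to 6 highest and 4 lowest members of each list, and glucocorticoid-related genes. Predicted loci were not to be named, and none fell among the 25 or the 20. Members and lists, 43 lists of 533 genes in all, were chosen with earlier results of these data known. Alternatives were other ways to rank, scale, filter and fit the arrays, and leaving out each culture. Promoters came from RefSeq (GRCm38.p6).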

Additional observations from a re-analysis of the deposited data

Results flagged for a closer look

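For each of the 167 genes named, the highest and the lowest of the 6 WT vehicle arrays were compared with the other 5 by Dixon's criterion, under which chance alone marks about 1 in 20 genes. Of these genes 11 had 1 array far from the rest, 5 of them in culture 3, 5 in culture 4 and 1 in culture 6. Over all genes the criterion marked a larger share, given by culture below, so the 11 are no excess.

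In culture 3 the log2 value of Fabp7 was low, at 18.58 against 19.13 to 19.39 elsewhere. Ptprz1 was low there at 18.06 against 18.74 to 18.91, and Eef1a1 at 18.46 against 19.13 to 19.43. The highest value of any transcript cluster on that array was 18.66, and that of the other vehicle arrays 19.37 to 19.80. Csf1r was high in culture 3 at 4.96 against 3.32 to 3.93, and Hoxa5 at 4.36 against 3.42 to 3.64, both at low signal.

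On the array labelled vehicle of culture 4, Fam107a was 12.51 against 5.04 to 5.58 elsewhere, Mt1 19.57 against 17.82 to 18.35 and Fkbp5 14.39 against 13.28 to 13.68. Ckb was 18.85 against 17.45 to 17.79. Ryk was low, at 13.60 against 14.48 to 14.80. Ttr was high in culture 6, at 11.79 against 4.38 to 6.35.

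Over all 19505 genes the same criterion marked 36, 61, 217, 1001, 114 and 177 genes for cultures 1 to 6. These are 0.185%, 0.313%, 1.11%, 5.13%, 0.584% and 0.907% of all genes. Of the 1001 genes of culture 4, 270 were high and 731 low.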

How the results depend on the processing

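With each WT culture left out in turn, 4130 to 4312 genes stood in the upper 25%, 12 of the 19 stem and progenitor genes remained counted there each time, and 14 to 17 of the 20 most variable genes were shared. Ranks over all transcript clusters, or the mean of a gene's clusters, gave 4248 and 4113 genes. Quantile normalization, the SD of percentiles and no filter kept 17, 16 and 16 of the 20. Of 344 recomputed list medians 3 moved beyond their spread, the largest shift being 4.64 percentile points, and of 387 list counts 8 moved; FGF receptors in the upper 25% were 2 without culture 2 or culture 6 and 3 at percentile 70. The genes that differed among WT cultures numbered 5632 to 9216 with a culture left out, and the lowest count was without culture 4, where 5464 were shared; quantile normalization gave 6715. For SOX2 KO against WT the count was 75 to 143 with a culture left out, 169 after quantile normalization (71 higher, 98 lower) and 164 without the Dex array of culture 12 (53 higher, 111 lower), an exclusion chosen after seeing the data. With the culture as a random replicate block, since both arrays of a culture share its number, it was 136 (45 higher, 91 lower), of which 107 were shared. The difference of Nes was -0.107 to 0.0933 and that of Fabp7 -0.0477 to 0.167 with a culture left out, and Fabp7 was -0.0861 after quantile normalization, so neither has a settled sign. The cause of these shifts was not tested. Arrays give no counts, and at low signal the order of genes is limited by background, which the table does not give.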
